A study of Mus musculus with 4 samples.

Results

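The annexins are a family of proteins that bind membranes rich in acidic phospholipids when calcium rises. The 8 genes described here are Anxa1, Anxa2, Anxa3, Anxa4, Anxa5, Anxa6, Anxa7 and Anxa11, and each was read from every probe set whose gene symbol on the array platform is one of these names. Of the 8 genes, 7 had at least 1 probe set naming no other gene, out of 18193 genes read in this way on the arrays, and these 7 had 17 probe sets between them. The only probe set carrying the symbol Anxa11 also carries those of Gm2260 and Gm2274, which are transcribed pseudogenes, so its values are given for that shared probe set and not for Anxa11. Anxa2, Anxa3 and Anxa5 were lower in MN1 leukemic marrow than in mature myeloid cells. Anxa4, Anxa6 and Anxa7 did not pass the test, and the 2 probe sets of Anxa1 gave different answers.

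The series holds 4 single-colour arrays of mouse bone marrow RNA from the C57BL/6J strain, 2 labelled MN1 leukemic and 2 labelled Gr1/Mac1. For the leukemic group, donor mice received 150 mg/kg of 5-fluorouracil 4 days before harvest, and their marrow was cultured for 48 hours with interleukin-6, interleukin-3 and stem cell factor. MN1, a transcriptional coregulator, was then introduced by coculture with GP+ E86 virus producer cells, and GFP-positive cells were sorted and transplanted into syngeneic mice irradiated with 750 cGy, together with fresh marrow of other syngeneic mice. The Gr1/Mac1 group, called mature here, is marrow cells positive for Gr1 and CD11b, which mark granulocytes and monocytes; the labels repeat the leukemia protocol for it, but the design text takes these cells from healthy mice. The labels describe no sort of the leukemic marrow at harvest, so cells of the host and of the supporting graft may be in it, and with no arrays of healthy progenitors, an effect of the leukemia and one of maturity cannot be told apart. In RNA of bulk samples, fewer cells of a type and less RNA per cell cannot be told apart either. The design text calls the arrays of a group biological replicates.

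As background, annexins share a core of repeats that holds the calcium and membrane sites and differ in the tail before it, through which several of them bind S100 proteins or other calcium-binding partners. In myeloid cells they are known for joining vesicles to membranes, for membrane repair and for granule release. Anxa1 protein, released by neutrophils, acts on formyl peptide receptors and dampens inflammation. Anxa2 forms a complex with S100a10 that binds plasminogen on the cell surface, and Anxa5 binds phosphatidylserine exposed on dying cells.

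Values below are MAS5 signals, which are linear intensities, in the order leukemic replicate 1, leukemic replicate 2, mature replicate 1 and mature replicate 2. Each log2 fold change subtracts the mature from the leukemic mean of log2(signal + 16), a scale on which changes of dim probe sets are understated, and ± is the SD (n = 2). Each gene was read from its brightest probe set, and all 7 genes had signals far above the lowest mean signal kept, 47.6, in both groups, so that none entered the test through 1 group alone. With limma and Benjamini-Hochberg adjustment over 12378 genes at a threshold of 0.05, 3 of the 7 annexin genes were lower and 0 were higher. Over all genes tested, 43.4% were called, 15.9% lower and 27.5% higher. The median log2 fold change was -0.52 over the 7 annexins, which is the value of Anxa1, and 0.28 over all genes. At the level of probe sets, 15 of the 17 were bright enough to be tested, and 4 of these were lower and 0 higher, against 34.9% of 27022 probe sets called, 13.6% lower and 21.2% higher. The median over the 15 was -0.08, against 0.19 over all 27022 probe sets. The same 3 genes were lower whichever array was left out.

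The arrays differed in ways that touch every gene. The 3′ to 5′ signal ratio of the beta-actin control was 3.28 and 3.09 in leukemic marrow, against 1.32 and 1.39 in mature cells, and the geometric mean of 18 hybridization controls was 11918 and 8950 against 4044 and 4168. Their part in the results was not tested. Scaling the groups to these controls moved the median of all genes from 0.28 to -0.95. As 1 factor per group moves all genes alike, apart from the added 16, changes relative to that median are fixed by construction. With quantile normalization the log2 fold changes of Anxa2, Anxa3 and Anxa5 relative to the median of all genes were -2.91, -2.49 and -2.48, against -2.93, -2.77 and -2.68 with the signals as deposited. Mature replicate 2 stood apart in sex-linked genes, with a signal of 4409 for the Y-linked Eif2s3y against 2.51 to 3.01 in the other 3 arrays.

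**Figure D1:**
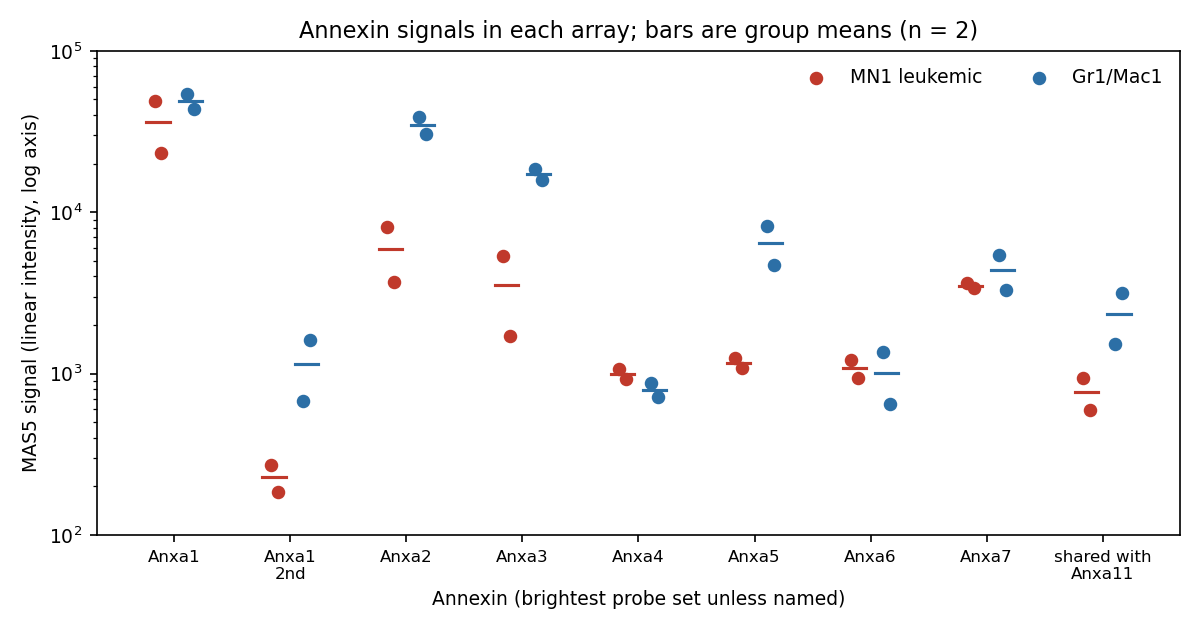
MAS5 signal (log axis) of each annexin in each array, with MN1 leukemic arrays in red, Gr1/Mac1 arrays in blue and bars at the mean of each group (n = 2). Both red points lie below both blue points for Anxa2, Anxa3, Anxa5, the second probe set of Anxa1 and the probe set shared by Anxa11, Gm2260 and Gm2274, and the groups overlap for the first probe set of Anxa1, for Anxa6 and for Anxa7.

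Anxa2, which carries S100a10 to the membrane, read 8073 and 3707 in leukemic marrow, against 38966 and 30685 in mature cells. Both leukemic arrays were below both mature arrays, at 5890 ± 3088 against 34826 ± 5856. The log2 fold change was -2.66 (SE 0.39, limma adjusted p = 0.0024), a signal 6.30-fold lower in leukemic marrow with a 95% interval of 3.31-fold to 11.99-fold. A second Anxa2 probe set, whose suffix (_x_at) marks probes that can match other transcripts, was dimmer and read 437 and 222 against 258 and 268. Its groups overlapped, and its log2 fold change was 0.24 (SE 0.38, adjusted p = 0.68 over all probe sets). With the mean of both tested probe sets Anxa2 was at -1.21 and was still called (adjusted p = 0.028). The third Anxa2 probe set was not tested, because it read between 1.58 and 5.56 in every array.

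Anxa5, the phosphatidylserine binder used in cell death assays, read 1248 and 1088 in leukemic marrow, against 8157 and 4738 in mature cells. The leukemic arrays lay close together and far below both mature arrays, which differed from each other more. The log2 fold change was -2.40 (SE 0.30, limma adjusted p = 0.0015), which is 5.28-fold lower with a 95% interval of 3.20-fold to 8.70-fold. Anxa5 had this 1 probe set, whose suffix (_a_at) marks probes matching several transcripts of a gene, as does that of the bright Anxa2 probe set.

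Anxa3, an annexin known from the granules and cytosol of neutrophils, read 5357 and 1712 in leukemic marrow, against 18537 and 15875 in mature cells. Its groups did not overlap, but the leukemic arrays were unlike each other, at 3534 ± 2578 against 17206 ± 1882. The log2 fold change was -2.49 (SE 0.50, limma adjusted p = 0.0070), which is 5.64-fold lower with a 95% interval of 2.49-fold to 12.7-fold. Without leukemic replicate 2 it was -1.68 (adjusted p = 0.017), and without leukemic replicate 1 it was -3.31 (adjusted p = 0.0013). Anxa2 moved the same way, to -2.10 and -3.22 in the same order (adjusted p = 0.0094 and 0.0015). Anxa5 ranged from -2.79 without mature replicate 2 to -2.01 without mature replicate 1 (adjusted p = 0.0028 and 0.0038). All 3 calls held in each alternative run in which the gene could be tested, with a highest adjusted p of 0.028 for Anxa2, 0.043 for Anxa3 and 0.013 for Anxa5.

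**Figure D2:**
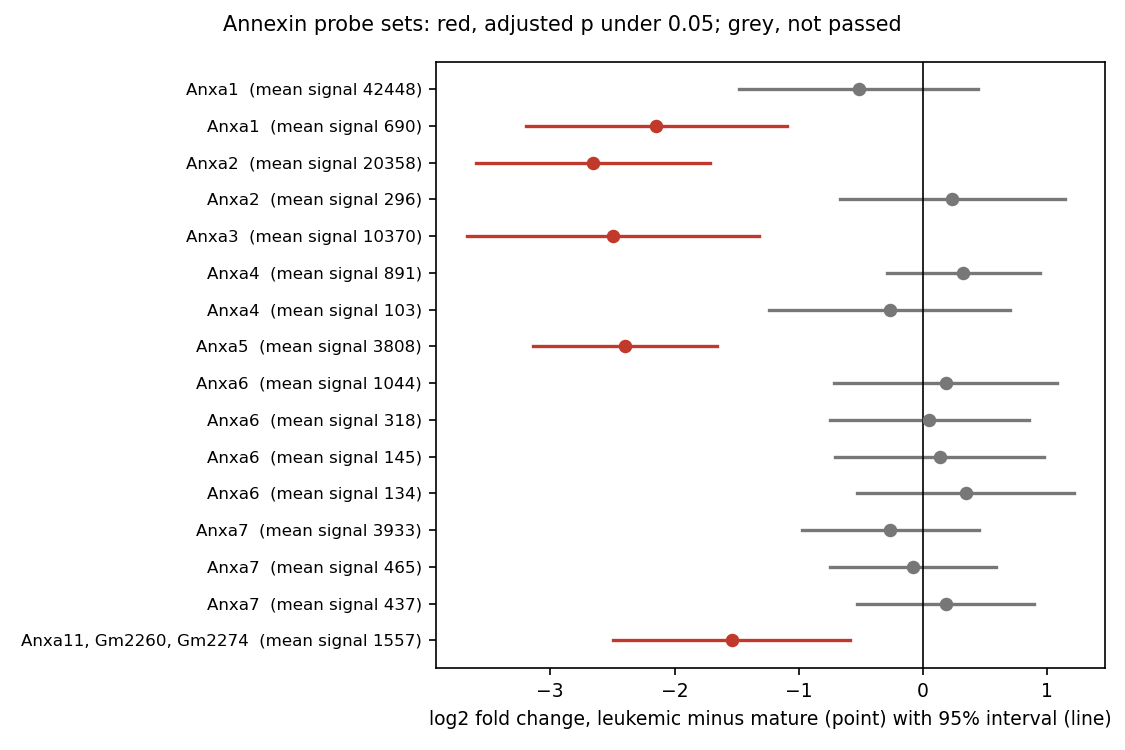
Log2 fold change, leukemic minus mature, of the 15 tested annexin probe sets and of the probe set shared by Anxa11, Gm2260 and Gm2274, with 95% intervals as lines (red, adjusted p under 0.05 over 27022 probe sets; grey, not passed). The bright probe sets of Anxa2, Anxa3 and Anxa5 lie between -2.66 and -2.40, and all 9 probe sets of Anxa4, Anxa6 and Anxa7 have intervals that include 0.

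Anxa1, the ligand of formyl peptide receptors, gave different answers in its 2 probe sets. The brighter one read 49128 and 23305 in leukemic marrow, against 53870 and 43488 in mature cells. The groups overlapped, since leukemic replicate 1 lay above mature replicate 2, and the log2 fold change was -0.52 (SE 0.40, limma adjusted p = 0.34, 95% interval -1.47 to 0.43). The interval therefore holds both no difference and a signal lower by up to 2.76-fold. The dimmer probe set read 273 and 185 in leukemic marrow, against 679 and 1622 in mature cells, with no overlap. Its log2 fold change was -2.15 (SE 0.44, adjusted p = 0.010 over all probe sets), and without leukemic replicate 2 it was -1.88 and lost its call (adjusted p = 0.070). Read from the bright probe set, Anxa1 was at 0.021 without leukemic replicate 2 and at -1.05 without leukemic replicate 1, so its direction rests on that pair of arrays. It was called lower with the mean of its probe sets (-1.33, adjusted p = 0.017), with quantile normalization (-0.96, adjusted p = 0.041) and with groups scaled to the hybridization controls (-1.85, adjusted p = 0.0079), a scaling that called 48.0% of all genes lower. The highest signals on the arrays ranged from 55476 to 98431, and whether signals as bright as those of the first probe set are compressed was not tested.

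RefSeq promoter windows of assembly GRCm38.p6 were at hand for 6 of the 8 genes, with 8 start sites. None was at hand for Anxa3, which was also lower, or for Anxa6, so neither gene was searched. The windows of Anxa2, Anxa5 and Anxa1 are printed as the 250 bases before the start, 5′ to 3′ on the strand of the gene. Anxa2 and Anxa5 were both lower, while the bright probe set of Anxa1 did not pass and its dimmer one was lower. Capitals mark matches on either strand to the MEIS motif TGACAG or the KLF/SP motif GGGCGG. The windows are chr9:69453433-69453682 on the plus strand for Anxa2, chr3:36475888-36476137 on the minus strand for Anxa5 and chr19:20390672-20390921 on the minus strand for Anxa1.
Anxa2: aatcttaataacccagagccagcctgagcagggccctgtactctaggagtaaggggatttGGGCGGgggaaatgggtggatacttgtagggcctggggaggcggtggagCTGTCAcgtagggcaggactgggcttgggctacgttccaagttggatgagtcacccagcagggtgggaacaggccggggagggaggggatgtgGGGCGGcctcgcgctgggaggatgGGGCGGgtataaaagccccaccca
Anxa5: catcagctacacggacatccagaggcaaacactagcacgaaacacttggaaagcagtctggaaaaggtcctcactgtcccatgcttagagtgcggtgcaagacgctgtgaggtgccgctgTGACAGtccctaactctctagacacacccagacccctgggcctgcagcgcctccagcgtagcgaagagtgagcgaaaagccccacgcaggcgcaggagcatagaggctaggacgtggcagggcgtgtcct
Anxa1: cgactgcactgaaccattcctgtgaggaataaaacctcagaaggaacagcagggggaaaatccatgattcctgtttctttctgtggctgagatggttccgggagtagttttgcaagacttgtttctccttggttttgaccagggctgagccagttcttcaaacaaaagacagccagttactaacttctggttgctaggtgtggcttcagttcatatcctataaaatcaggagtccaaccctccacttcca

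MEIS proteins bind DNA with HOX proteins, and the title of the series names such a complex as its subject. In the window of 250 bases before to 50 after each start, TGACAG was found once for Anxa2, at 141 to 136 bases before the start on the opposite strand, and once for Anxa5, at 130 to 125 bases before it. It was not found for Anxa1, and 19.2% of all 32851 promoter windows hold it. GGGCGG was found 3 times for Anxa2 and not for Anxa5 or Anxa1, and 35.7% of all windows hold it. Searches on both strands for the PU.1 letters GAGGAAGT, GGGGAAGT and AGGAAGTG, the C/EBP letters TTGCGNAA and the PBX-HOX letters TGATTNAT found none in these 3 windows. Of the remaining windows, 1 of Anxa4 held TGACAG and AGGAAGTG, and that of Anxa11 held TGACAG. The other window of Anxa4, both of Anxa7 and that of Anxa11 held GGGCGG. Both windows of Anxa7 overlap, and the only match in 1 of them is a site that also lies in the other. The letters of the PU.1, C/EBP and PBX-HOX motifs occur, in the order given, in 3.20%, 1.48%, 4.07%, 0.798% and 3.22% of all windows. GAGGAAGT and AGGAAGTG can overlap each other. A match is a description of the letters, and no binding was measured here.

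The probe set shared by Anxa11, Gm2260 and Gm2274 read 939 and 593 in leukemic marrow, against 1523 and 3175 in mature cells. Both leukemic arrays were below both mature arrays, and the log2 fold change was -1.54 (SE 0.40, limma adjusted p = 0.024 over all probe sets). The call was lost without leukemic replicate 2 (-1.21, adjusted p = 0.16), without mature replicate 2 (-1.01, adjusted p = 0.058) and without a variance trend (adjusted p = 0.058). Anxa11 protein has a long tail that binds S100a6 and Pdcd6, and how much of this signal is its RNA cannot be read from a shared probe set.

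Anxa4, Anxa6 and Anxa7 did not pass in any of their probe sets. Anxa4, best known from the membranes of secretory epithelia, read 1065 and 919 in leukemic marrow, against 871 and 711 in mature cells, with a log2 fold change of 0.32 (SE 0.25, limma adjusted p = 0.34). The 2 groups did not overlap here, yet the gap was small beside the error, with a 95% interval of -0.27 to 0.92. Its second tested probe set was at -0.27 (adjusted p = 0.65), and the third was not tested, at 35.4 and 52.6 against 40.8 and 35.1.

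Anxa6, which has a longer core than the other annexins and binds endosomes and the cell membrane, read 1218 and 943 in leukemic marrow, against 1365 and 651 in mature cells. The mature arrays enclosed both leukemic arrays, and the log2 fold change was 0.18 (SE 0.38, limma adjusted p = 0.73, 95% interval -0.71 to 1.07). Its other 3 probe sets were at 0.05, 0.13 and 0.34 (adjusted p = 0.93, 0.81 and 0.51). Anxa7, also called synexin, whose tail binds sorcin, read 3651 and 3371 in leukemic marrow, against 5438 and 3270 in mature cells. The log2 fold change was -0.26 (SE 0.29, limma adjusted p = 0.50, 95% interval -0.96 to 0.43), and its other 2 probe sets were at -0.08 and 0.18 (adjusted p = 0.85 and 0.68). These intervals leave out differences as large as those of Anxa2, Anxa3 and Anxa5 for Anxa4, Anxa6 and Anxa7, on the signals as deposited. The signs of Anxa4 and Anxa6 depended on the scaling. With groups scaled to the hybridization controls Anxa4 was at -0.98, Anxa6 at -1.13 and Anxa7 at -1.59, all called lower (adjusted p = 0.015, 0.041 and 0.0038). Under that scaling 48.0% of all genes were called lower.

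**Figure D3:**
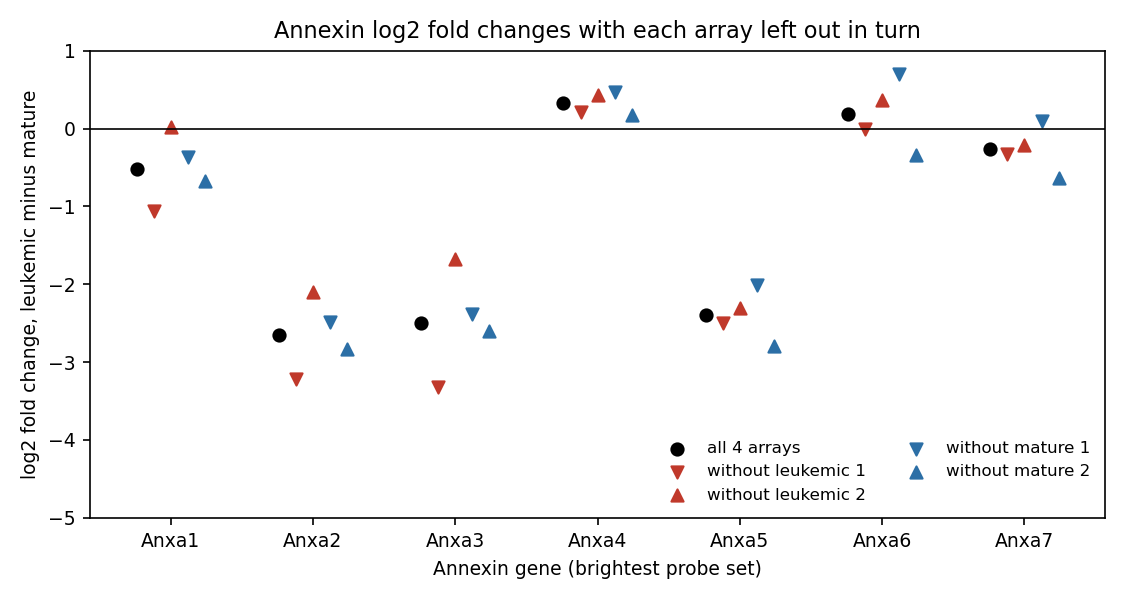
Log2 fold change, leukemic minus mature, of 7 annexin genes with all 4 arrays (black) and with each leukemic (red) or mature (blue) array left out in turn. Anxa2, Anxa3 and Anxa5 stay between -3.31 and -1.68 throughout, while Anxa1 moves between -1.05 and 0.021 with the leukemic array that is left out.

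The leukemic replicates differed in Anxa1, Anxa2 and Anxa3. Leukemic replicate 1 was above replicate 2 by 1.08 for Anxa1, 1.12 for Anxa2 and 1.64 for Anxa3 on the log2 scale, while the median difference over all genes was -0.0056. These differences lay above those of 95.5%, 96.0% and 98.9% of the genes. For Anxa4, Anxa5, Anxa6 and Anxa7 the difference was 0.11 to 0.36. The 8 measured neutrophil markers, of 10 listed, were also all higher in leukemic replicate 1, with a summed signal of 393776 against 231848 in replicate 2. The mature arrays summed to 377206 and 297081. Of these markers 3 were lower in leukemic marrow (Mmp8, Mmp9 and Cxcr2) and the other 5 did not pass. The granule gene Ngp, for example, read 72924 and 48230 against 54228 and 35992. Itgam, which encodes the CD11b of the gate, read 584 and 306 against 4288 and 4407. Of the 6 macrophage markers 4 were lower, among them Adgre1, 1 was higher (Mrc1, 760 and 568 against 306 and 265, limma adjusted p = 0.017) and 1 did not pass. C1qc, also lower, had a leukemic mean of 35.0, below the lowest mean kept, so it was tested only through the mature arrays. The 6 macrophage markers summed to 3246 and 1665 in leukemic marrow, against 4457 and 4429 in mature cells. The part of neutrophil or macrophage RNA in the annexin values was not tested.

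Among the brightest probe sets of the 7 genes, the mature replicates differed most in Anxa6, Anxa5 and Anxa7. Mature replicate 1 was above replicate 2 by 1.05 for Anxa6, 0.78 for Anxa5 and 0.73 for Anxa7, against a median of 0.03 over all genes, and above the difference of 94.3%, 89.3% and 87.9% of the genes. The dimmer probe set of Anxa1 and the probe set shared by Anxa11, Gm2260 and Gm2274 differed the other way, by -1.24 and -1.05. All 6 monocyte markers were higher in mature replicate 1 as well, as were 7 of the 8 measured neutrophil markers, against 2 of the 6 macrophage markers. The monocyte markers had summed signals of 55828 and 31277 in the mature and 8536 and 6636 in the leukemic arrays. All 6 were lower in leukemic marrow. The progenitor markers went the other way, with 5 of 5 higher and sums of 34373 and 33418 against 2375 and 3363. So did those of mast cells and basophils, with 5 of 5 tested higher and sums of 48751 and 62441 against 1048 and 1350. Kit, at 4071 and 4145 against 546 and 1057, is counted in both of these lists. Tpsb2, of the mast cell and basophil list, lay below the filter on low signals. Of the erythroid markers 2 of 3 tested were higher, and Klf1 read 9157 and 11465 against 54.3 and 101. Alas2 did not pass, at 1354 and 3152 against 6164 and 2176, and Hba-a1 lay below the filter on low signals. Of the megakaryocyte markers 2 of 6 tested were higher and 0 lower. Of the plasma cell markers 3 of 5 tested were lower, with sums of 7823 and 6644 against 18869 and 12899. Most of each sum was Xbp1, at 7601 and 6246 against 12001 and 11211. Sdc1 and Derl3 did not pass, and Sdc1 went the other way, at 84.7 and 120 against 23.6 and 49.4. The immunoglobulin gene Igha, among the lower ones, read 10.8 and 8.59 against 5805 and 1023, so that mature replicate 1 was also the higher one there. Of the T and NK cell markers Cd3d was lower, at 42.6 and 6.30 against 373 and 384, Cd8a did not pass, and Cd3e, Cd3g and Ncr1 lay below the filter on low signals. The leukemic means of Cd3d (24.4), Igha (9.68) and Jchain (38.8) lay below the lowest mean kept, 47.6. These 3 markers were tested only through the mature arrays. The mature means of Cpa3 (40.7), Fcer1a (42.4) and Vwf (26.7), all called higher, also lay below it, so they were tested only through the leukemic arrays. None of the 4 tested B cell markers and none of the 4 tested markers of endothelium and stroma passed. The part of RNA of any of these cells in the annexin values was not tested.

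The arrangement of the leukemic and mature values of Anxa2 was shared by other genes. With values centred on each gene's mean, the genes closest to Anxa2 over the 4 arrays were Inpp4a, a phosphoinositide phosphatase gene, Csf2ra, which encodes the alpha chain of the GM-CSF receptor, and Sh2d3c, an adaptor gene, at root mean square distances of 0.04, 0.04 and 0.07 log2 units. Their log2 fold changes were -2.61, -2.68 and -2.75, and 168 genes lay within 0.25 log2 units of Anxa2. Of Anxa4, which had the highest log2 fold change among the brightest probe sets of the 7 genes, the closest genes were Tmem68, Fam98c and Mis12, with 1716 genes within the same distance. Over 4 arrays such closeness describes only these libraries.

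Genes linked to annexins were read from lists of binding partners and related pathways. Of 91 listed genes 63 were tested, 28 were lower, 6 were higher and 29 did not pass, with a median log2 fold change of -0.71 against 0.28 over all genes. The share of tested genes that were lower was 44.4%, where 15.9% of all genes were. As the lists were chosen with earlier results of these data known, these shares are a description and not a test. Without leukemic replicate 2, 18 of the 63 passed, 15 lower and 3 higher, where 8.33% of all genes were lower and 12.5% higher. With groups scaled to the hybridization controls 47 were lower and 2 higher, where 48.0% of all genes were lower and 8.75% higher.

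**Figure D4:**
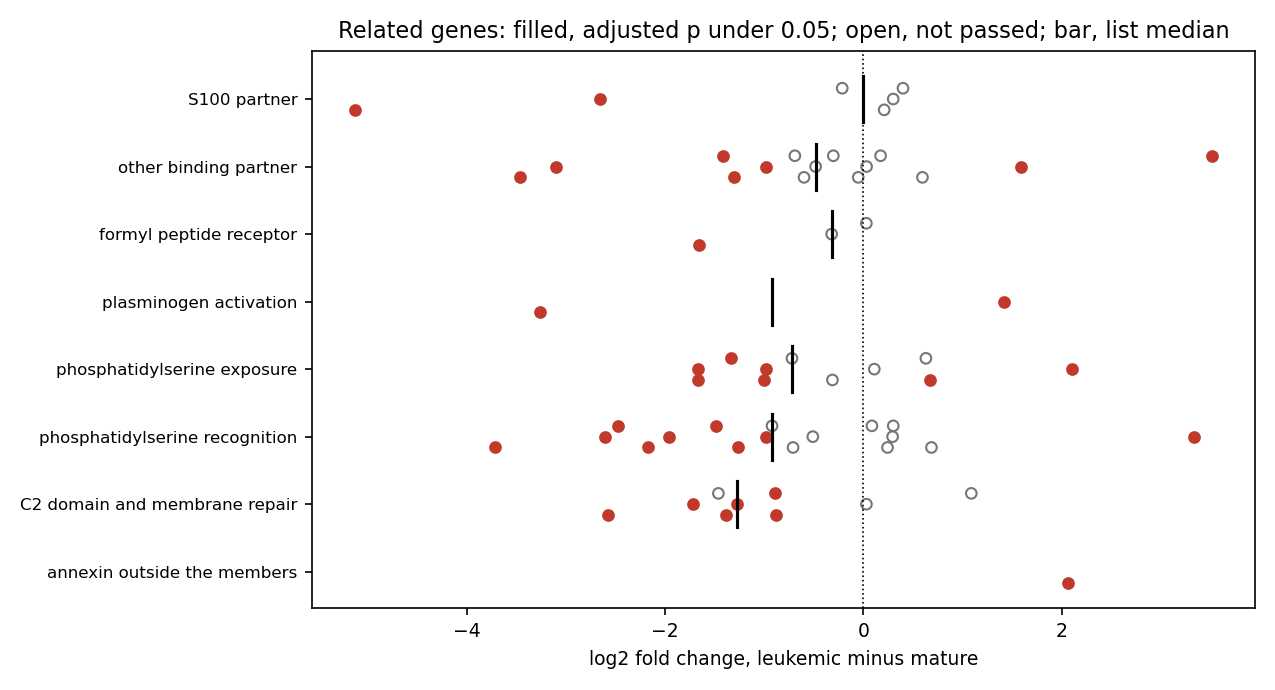
Log2 fold change, leukemic minus mature, of the tested genes of each related list (filled, adjusted p under 0.05; open, not passed) with a bar at the median of each list of over 1 gene. In the C2 domain and membrane repair list 6 of 9 genes were lower and 0 higher, and in the S100 list 2 of 6 were lower with a median of -0.0027.

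Of the S100 proteins, small calcium-binding dimers of which some bind annexin tails, 2 of 6 tested genes were lower and 0 higher. S100a6, a partner of Anxa11, read 5339 and 2843 in leukemic marrow, against 31071 and 19474 in mature cells (log2 fold change -2.65, SE 0.38, limma adjusted p = 0.0021). S100a4 read 171 and 170 against 10515 and 4015 (-5.13, SE 0.44, adjusted p = 4.6e-04), and ranged from -5.82 without mature replicate 2 to -4.43 without mature replicate 1. S100a10, the partner of Anxa2, read 2383 and 1667 against 3516 and 1523 in its brightest probe set, with overlapping groups (-0.21, SE 0.41, adjusted p = 0.71). Its other probe sets were at -0.88 (adjusted p = 0.35) and -1.86 (adjusted p = 0.015 over all probe sets), so S100a10 is not settled by these arrays. S100a8, S100a9 and S100a1 did not pass, at 0.30, 0.21 and 0.40, and all 3 turned negative with groups scaled to the hybridization controls.

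Of the formyl peptide receptors and the related chemerin receptor, 3 of 8 listed genes were tested. Fpr2, a receptor of Anxa1, read 18168 and 7271 in leukemic marrow, against 40171 and 33042 in mature cells, with no overlap (log2 fold change -1.66, SE 0.44, limma adjusted p = 0.020). Its call was lost without leukemic replicate 2 (-1.003, adjusted p = 0.080), mature replicate 1 (-1.52, adjusted p = 0.087) or mature replicate 2 (-1.80, adjusted p = 0.056). Fpr-rs4 (0.03, adjusted p = 0.98) and Cmklr1 (-0.32, adjusted p = 0.68) were dim and did not pass, and Fpr1 was not analysed here.

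In plasminogen activation, the surface process in which Anxa2 takes part, 2 of 8 listed genes were tested. Plaur, the urokinase receptor gene, was lower, at 673 and 438 against 5312 and 5408 (log2 fold change -3.26, limma adjusted p = 4.2e-04). Plgrkt, a plasminogen receptor gene, was higher, at 2248 and 3991 against 1214 and 1022 (1.41, adjusted p = 0.011). That call was lost without leukemic replicate 2 (adjusted p = 0.11), with every array at the same median (0.051) and with groups scaled to the hybridization controls (0.10, adjusted p = 0.81).

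Of 15 other listed partners, all were tested, 5 were lower, 2 were higher and 8 did not pass. Prkca, a calcium-dependent protein kinase gene, was higher by 3.51 (limma adjusted p = 0.0035), with signals of 657 and 895 against 110 and 21.3. Its mature arrays differed widely, and it was at 4.39 without mature replicate 1 and at 2.63 without mature replicate 2. Ahnak, a large scaffold protein of the Anxa2 and S100a10 complex, was at -3.46 (adjusted p = 0.0016), and Lgals3, a secreted lectin of macrophages, at -3.10 (adjusted p = 0.0021). Lgals3 ranged from -3.74 without leukemic replicate 1 to -2.45 without leukemic replicate 2. The lectin gene Lgals9 was higher by 1.59 (adjusted p = 0.0030), a call lost with groups scaled to the hybridization controls (0.26, adjusted p = 0.40).

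Phosphatidylserine, the lipid that Anxa5 binds, is kept inside the cell by flippases and exposed by scramblases. Of 14 listed genes of its exposure 11 were tested, 5 were lower and 2 higher. The flippase genes Atp11a (-1.67, limma adjusted p = 0.0083), Atp8b4 (-1.67, adjusted p = 0.010) and Atp11b (-1.33, adjusted p = 0.0042) were lower. The scramblase gene Xkr8 was lower too (-0.99, adjusted p = 0.046), and the scramblase gene Ano6 did not pass (-0.72, adjusted p = 0.070). Of the phospholipid scramblase family, Plscr3 was higher (0.67, adjusted p = 0.045) and Plscr1 did not pass (-0.31, adjusted p = 0.51). Plscr4 of that family read 109 and 209 against 29.3 and 17.6 and was called higher (adjusted p = 0.018). Its mature mean of 23.5 lay below the lowest mean kept, so it was tested only through the leukemic arrays, and its log2 fold change of 2.10 was 2.68 with 1 and 1.32 with 64 added to the signal. The calls of Atp11a, Atp8b4 and Plscr4 were lost without leukemic replicate 2 (adjusted p = 0.064, 0.055 and 0.16). That of Plscr4 was also lost with groups scaled to the hybridization controls (1.10, adjusted p = 0.13). Second probe sets of Atp11a (-0.85) and Atp8b4 (-1.12) did not pass.

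Of 20 listed genes for recognition and uptake of phosphatidylserine 17 were tested, 8 were lower and 1 higher, with a median of -0.92. The phospholipid receptor gene Cd300lf was at -2.61 (limma adjusted p = 0.0037) and the integrin gene Itgb3 at -2.48 (adjusted p = 0.0077). Without leukemic replicate 1 they were at -3.32 and -3.13, and without leukemic replicate 2 at -1.90 and -1.82. Itgb3 was at -1.97 without mature replicate 1. Dock1, an activator of Rac in engulfment, read 3.40 and 49.4 against 480 and 424 and was called lower (adjusted p = 0.0034). Its leukemic mean of 26.4 lay below the lowest mean kept, so it was tested only through the mature arrays. Its log2 fold change of -3.71 was -4.92 with 1 and -2.56 with 64 added to the signal, and -2.84 and -4.59 without leukemic replicate 1 and 2. Lrp1, an endocytic receptor gene, was higher by 3.33 (adjusted p = 3.9e-04), at 8173 and 8323 against 995 and 654, while its second probe set was at -1.07 and did not pass (adjusted p = 0.14). A second probe set of Itgb3 did not pass either (-1.41, adjusted p = 0.094).

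Proteins with C2 domains bind the same membranes under calcium through another fold. Of 17 listed genes of this kind and of membrane repair 9 were tested, 6 were lower and 0 higher, with a median of -1.28. The copine gene Cpne3 read 4145 and 2725 in leukemic marrow, against 18364 and 21887 in mature cells (log2 fold change -2.57, limma adjusted p = 9.5e-04), and its 2 other probe sets were lower too (-2.91 and -1.87). Sytl1, a gene of vesicle docking, was at -1.72 (adjusted p = 0.0046), Cpne2 at -1.39 (adjusted p = 0.0058) and Cpne1 at -1.28 (adjusted p = 0.0046). The call of Cpne2 was lost without leukemic replicate 2 (adjusted p = 0.061).

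Of 4 annexin genes outside the 8, Anxa9, an annexin thought to bind no calcium, was tested and was higher. It read 305 and 510 in leukemic marrow, against 95.8 and 70.7 in mature cells (log2 fold change 2.06, SE 0.40, limma adjusted p = 0.0061). The call was lost without leukemic replicate 2 (1.70, adjusted p = 0.083) and with groups scaled to the hybridization controls (0.85, adjusted p = 0.11). Anxa8, Anxa10 and Anxa13 lay below the filter on low signals, between 1.38 and 69.0 in every array.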

How the data were processed

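MAS5 signal intensities, as deposited, were used. The submitters' processing notes name MAS5 and GCOS 1.3.0, and the sources used here give no scaling target or detection call. The trimmed mean was 500.003 or 500.004 in every array, so all had 1 target. MAS5 subtracts a mismatch-based background, which leaves dim probe sets noisy. Probe sets were named by the platform annotation, some of it old.

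Signals were taken as log2(signal + 16). Probe sets in the lowest 40% by mean signal were dropped, and each gene was read from its brightest kept probe set. A second fit took all 27022 kept probe sets. The test was that of limma 3.58.1 under R 4.3.3 (lmFit, eBayes with a variance trend, two-sided, Benjamini-Hochberg threshold 0.05), with 2 residual degrees of freedom, 6.90 after moderation. The code was tested on simulated data. With 2 arrays a group an exact permutation test can give no p below 0.333, so none was used. Members and lists were chosen with earlier results of these data known. Named genes were all members, up to 4 called genes of each list with the largest changes, all tested S100 genes and formyl peptide receptors, and the 3 genes closest to the member with the largest change in each direction. Xkr8, Ano6, Plscr1 and Plscr3 were named besides these. Alternatives were other pseudocounts (1 and 64), filters, scalings and variance models, other uses of probe sets, a replicate block and each array left out. Promoters came from RefSeq. Figures used matplotlib 3.10.9 in Python 3.11.15.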

Additional observations from a re-analysis of the deposited data

How the results depend on the processing

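With 2 arrays a group, calls depend on the spread within each group, and nothing in the labels pairs arrays by replicate number. The correlation of same-numbered deviations across genes was -0.030, which cannot settle whether arrays were paired. For each annexin gene, read from its brightest probe set, replicate 1 was above replicate 2 in both groups. With a replicate block 3 annexin genes and 4 annexin probe sets were called lower and 0 higher, so it changed no annexin call. Of the related genes 29 were then lower and 6 higher. With that block 16.6% of all genes were lower and 28.3% higher, and of all probe sets 14.3% and 22%. In the main fit, which has no block, 15.9% of all genes were lower and 27.5% higher. Of all genes 5375 were called, 3429 without leukemic replicate 1 and 2575 without leukemic replicate 2. Of the calls 63.3% were higher, 49.7% with every array at the same median and 15.4% with groups scaled to the hybridization controls. Over 16 alternatives and 50 genes and probe sets, 46 values changed sign. Among those that kept their sign, 701 stayed on the same side of the threshold, 18 lost a call and 7 gained one. Calls gained with a change of sign, such as Anxa4 and Anxa6 with groups scaled to the hybridization controls, are counted only as sign changes. The cause was not tested except where fewer probe sets remained.

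Without probe sets that can match several transcripts, 1 of 4 tested annexin genes and 2 of 9 tested annexin probe sets were called, all lower. Anxa2 and Anxa5, both called in the main fit, then had no tested probe set, and nor had Anxa4. In that run 15.6% of all genes were lower and 25.9% higher, and of all probe sets 13.9% and 19.1%. Scaling to the hybridization controls called 7 annexin genes and 13 annexin probe sets lower, and 47 related genes lower and 2 higher. It called 48.0% of all genes and 46.7% of all probe sets lower, and 8.75% and 6.55% higher. It turned Anxa4 (-0.98), Anxa6 (-1.13), S100a8 (-1.03), S100a9 (-1.12), S100a1 (-0.92), Fpr-rs4 (-0.96), Tmem68 (-0.98), Fam98c (-0.90) and Mis12 (-0.93) negative, with the dimmer probe sets of Anxa6 (-1.21, -1.06 and -0.84), Anxa2 (-1.02) and Anxa7 (-1.10). With every array at the same median Anxa6 (-0.14), S100a8 (-0.021), S100a9 (-0.11), Fpr-rs4 (-0.20) and dimmer probe sets of Anxa6 (-0.26 and -0.16), Anxa2 (-0.070) and Anxa7 (-0.13) turned negative. Quantile normalization did so for S100a8 (-0.22), S100a9 (-0.26), Fpr-rs4 (-0.16) and dimmer probe sets of Anxa6 (-0.25 and -0.21), Anxa2 (-0.084) and Anxa7 (-0.11), and a pseudocount of 64 for Fpr-rs4 (-0.0077).

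With each array left out in turn, log2 fold changes ranged from -1.05 to 0.021 for Anxa1, -0.34 to 0.71 for Anxa6, -0.63 to 0.10 for Anxa7, -0.81 to 0.39 for S100a10, -0.22 to 0.64 for S100a9, -0.66 to 0.72 for Fpr-rs4 and -0.68 to 0.039 for Cmklr1. Dimmer probe sets ranged from -0.23 to 0.70 for Anxa2, -0.20 to 0.30 for Anxa6, and -0.22 to 0.061 and -0.070 to 0.43 for Anxa7. Related genes called numbered 18 to 34, with 15 to 27 lower and 3 to 7 higher. The share of all genes called also differed between these runs. Both the related genes and all genes had the fewest calls, lower and higher alike, without leukemic replicate 2.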
